A study of Mus musculus with 20 samples.

Results

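The genes described here are 37 mouse solute carriers (SLC) that move amino acids or closely related compounds across the plasma membrane or the lysosomal membrane. They were chosen by symbol from the SLC1, SLC3, SLC6, SLC7, SLC16, SLC36, SLC38 and SLC43 families, and each symbol was matched to its Ensembl identifier in the GENCODE annotation of GRCm38. All 37 were present in both deposited count tables, among 47069 genes in the heart table and 53801 in the skeletal muscle table. The series holds 20 libraries, each with an ID of its own, and the labels do not say whether a mouse gave both tissues. There were 5 WT and 5 Taz-KD hearts, and 5 WT and 5 Taz-KD femur muscles. WT mice were C57BL/6N, and Taz-KD mice carried the ROSA26H1/tetO-shRNA:TAZ transgene, whose hairpin RNA against Taz is induced by doxycycline. All mice, WT included, ate chow holding doxycycline (625 mg/kg) until they were 20 weeks old, so the drug itself does not separate the groups. The knockdown is systemic and not limited to muscle cells. Taz encodes tafazzin, which remodels the mitochondrial lipid cardiolipin, and its deficiency in humans causes Barth syndrome.

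Amino acid carriers differ in substrate and in what drives them. Sodium-coupled carriers, such as those of system A, accumulate small neutral amino acids, exchangers trade one amino acid for another, and proton-coupled carriers of the SLC36 family work at the plasma membrane or at lysosomes. Several SLC7 exchangers are light chains that reach the plasma membrane only when joined to the heavy chain encoded by Slc3a2. In many cell types, amino acid shortage and other stresses raise transcripts of some of these carriers through the kinase GCN2 or related kinases and the transcription factor ATF4.

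Taz itself checked the genotype labels. On the scale of CPM (counts scaled to a common library size), its mean ± SD over 5 libraries was 37.8 ± 1.40 in WT hearts, 11.7 ± 0.731 in Taz-KD hearts, 51.7 ± 3.42 in WT muscles and 13.4 ± 1.05 in Taz-KD muscles. No Taz-KD library reached the lowest WT library in either tissue. Total counts per library were 26963288 to 30090918 in WT hearts and 30248445 to 35301909 in Taz-KD hearts, so every Taz-KD heart was sequenced more deeply than every WT heart. The muscle libraries held 36429399 to 74361382 counts. Defining markers fitted the tissue labels: Myh6, the myosin of heart muscle, had a WT mean of 28870 CPM in heart against 10.6 CPM in muscle, and Myh4, a myosin of fast skeletal fibers, was at 0 in every heart. In these bulk samples, fewer cells of a type and less RNA per cell cannot be told apart, and the p-values measure the spread between these samples, part of which may be technical.

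Transporter transcripts in the heart changed mostly upward. Of the 35 members with enough counts to be tested, 12 were higher in Taz-KD hearts, 3 were lower and 20 did not pass (adjusted p under 0.05, quasi-likelihood test of edgeR with Benjamini-Hochberg adjustment over all genes tested). Over all 19486 genes tested in heart, 14.4% were higher and 10.3% were lower. The members were chosen with earlier results of these data known, so these and later shares describe the set and do not test it. The largest increases were those of Slc7a11, Slc7a3 and Slc7a5, followed by Slc6a9, Slc1a4, Slc38a1 and Slc3a2. In 11 members every Taz-KD heart lay above every WT heart, against 11.3% of all genes tested, and in 1 member every Taz-KD heart lay below, against 7.05%. The median log2 fold change was 0.22 over the 35 members and -0.02 over all genes tested. The listed markers of skeletal fibers summed to 1007 to 1435 CPM in WT hearts and 1561 to 2412 CPM after knockdown, with no overlap. Nearly all of this sum came from 2 genes that WT hearts also held, Ckm (means of 1022 and 1042 CPM) and Acta1. Ckm overlapped between genotypes, so the separation of the sums follows Acta1. Of the 3 markers tested, 1 was called higher, the actin gene Acta1 (1.82 ± 0.57, adjusted p = 0.0464, edgeR), from a mean of 222 to 783 CPM. The other 2, Ckm (0.03 ± 0.09, adjusted p = 0.869) and Tnnt3 (-0.29 ± 0.32, adjusted p = 0.556), did not pass. Myh1 and Myh2 had too few counts to be tested, Myh1 with every Taz-KD heart below every WT heart, and Myh4 was at 0. The part of these markers in the higher values was not tested.

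**Figure D1:**
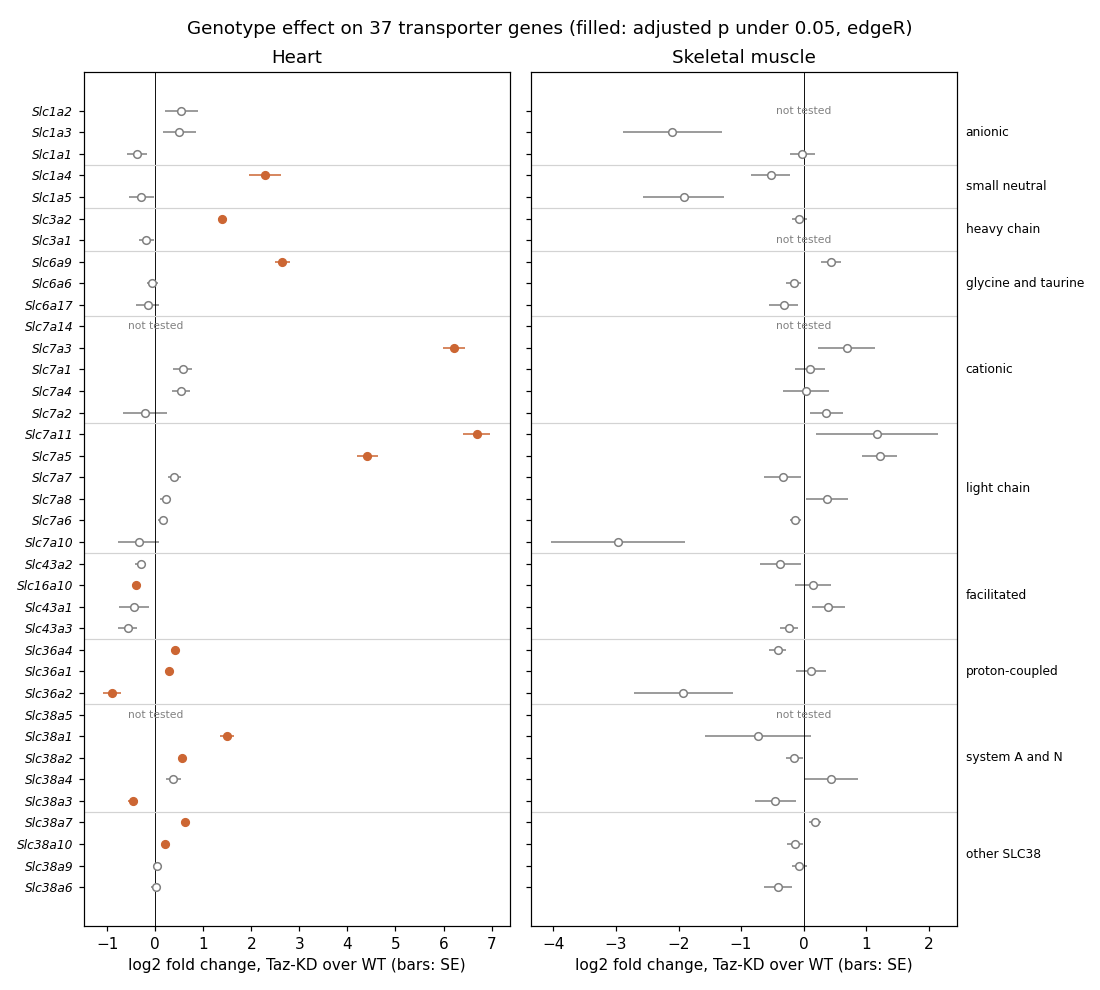
Log2 fold change of Taz-KD over WT (x axis, with separate scales for heart on the left and skeletal muscle on the right) for each of the 37 members (y axis, grouped by substrate or role). Points are edgeR estimates, bars are their SE, and filled points have an adjusted p under 0.05: 15 members in heart and 0 in muscle.

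Among the 6 light chains, Slc7a11 and Slc7a5 rose in Taz-KD hearts and the other 4 did not pass by edgeR. Slc7a11 (ENSMUSG00000027737, GRCm38 chromosome 3 from 49892526 to 50443614) encodes xCT, which imports cystine in exchange for glutamate. Its 5 WT hearts measured 0.225, 0.0376, 0.0689, 0.280 and 0.173 CPM, and its 5 Taz-KD hearts measured 19.7, 15.1, 21.1, 14.5 and 13.9 CPM. The transcript was thus close to undetected in WT, with 1 to 8 counts per library, and present in every Taz-KD heart at 452 to 724 counts. The log2 fold change was 6.69 ± 0.28 (SE; adjusted p = 1.2e-08, edgeR), a 103-fold difference that rests on 23 WT counts in all.

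Slc7a5 (ENSMUSG00000040010, chromosome 8 from 121881150 to 121907694) encodes LAT1, the exchanger of large neutral amino acids such as leucine. WT hearts measured 5.09, 3.46, 5.96, 5.32 and 7.98 CPM and Taz-KD hearts 107, 144, 144, 97.0 and 102 CPM. The groups lay far apart, with the lowest Taz-KD heart more than 10-fold above the highest WT heart. The log2 fold change was 4.42 ± 0.22 (adjusted p = 2.39e-07, edgeR), or 21.3-fold. The remaining light chains did not pass by edgeR, and DESeq2 called 1 of them, Slc7a7, higher (adjusted p = 0.0396). Slc7a7, an exchanger of cationic for neutral amino acids, measured 5.05, 4.02, 5.17, 3.96 and 4.54 CPM in WT hearts and 4.94, 4.86, 6.12, 6.91 and 7.07 CPM in the Taz-KD hearts (0.39 ± 0.14, adjusted p = 0.0536, edgeR). Its relative Slc7a6 measured 15.3, 12.6, 14.8, 12.8 and 11.3 CPM in WT hearts and 16.7, 13.6, 15.2, 14.3 and 14.6 CPM in the Taz-KD hearts (0.16 ± 0.09, adjusted p = 0.257). Both sets overlapped between genotypes. The neutral amino acid exchanger Slc7a8 measured 5.21, 3.57, 4.72, 3.92 and 4.16 CPM in WT hearts and 5.53, 4.86, 4.31, 5.27 and 5.12 CPM in the Taz-KD hearts (0.22 ± 0.12, adjusted p = 0.230). For Slc7a10, an exchanger of small neutral amino acids, the values were 0.901, 0.451, 0.896, 0.560 and 0.451 CPM in WT hearts and 0.0933, 0.855, 0.321, 0.722 and 0.586 CPM in the Taz-KD hearts (-0.35 ± 0.43, adjusted p = 0.612). The groups of Slc7a8 and Slc7a10 overlapped as well.

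The promoter of Slc7a11 is shown because this member had the largest change and because paired copies of a short sequence lie just before its start. The letters TGATGCAA (TTGCATCA on the other strand), an 8-base form of the amino acid response element that ATF4 binds, were searched on both strands in the 250 bases before each start in the RefSeq promoter table (GRCm38.p6). A looser form, TGATGNAA, was searched too; it includes all matches of the first. Of the 37 members, 27 have an entry there, and the 10 without one are Slc1a5, Slc6a6, Slc7a2, Slc7a3, Slc7a4, Slc7a5, Slc36a2, Slc38a1, Slc38a3 and Slc43a3. In the sequences below, read from 5′ to 3′ on the strand of the gene, capitals mark matches to TGATGCAA or its reverse. The Slc7a11 sequence is the 120 bases before the start (chr3:50443614-50443733, minus strand), the Slc1a4 sequence is 30 bases around the start (chr11:20332701-20332730, minus strand), and the Slc7a7 sequence is 30 bases around a match that lies 236 to 243 bases before one of its annotated starts and crosses another (chr14:54417929-54417958, minus strand).
Slc7a11: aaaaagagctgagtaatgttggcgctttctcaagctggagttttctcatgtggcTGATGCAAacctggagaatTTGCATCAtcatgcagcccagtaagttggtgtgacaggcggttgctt
Slc1a4: cgtgcctcctgcgTTGCATCAtctccagcc
Slc7a7: gggacctagaagcTGATGCAAcagcttccc

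The copies before Slc7a11 are in opposite orientation, at 59 to 66 and 40 to 47 bases before the start. The match in Slc1a4, a member that also rose in heart, crosses the start itself and so lies outside the 250-base window, and Slc7a7, which also holds a match, did not pass by edgeR and passed by DESeq2 (adjusted p = 0.0396). Within the 250-base window, 2 of the 27 members with an entry held TGATGCAA, as did 0.918% of all 27025 genes in the table, and the same 2 members held TGATGNAA, against 3.91% of all genes. Of the 9 members that rose in heart and have an entry, 1 held a match, and none was seen for Slc3a2, Slc6a9 or Slc38a2 in this window. These matches describe the letters only.

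**Figure D2:**
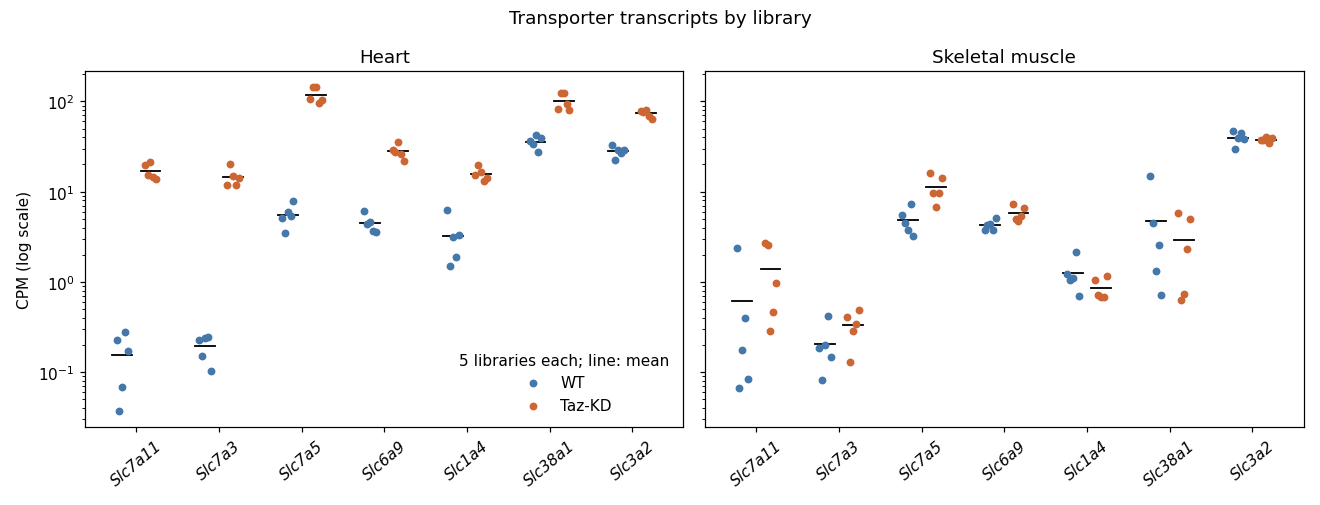
CPM on a log axis for the 7 members with a log2 fold change of at least 1 in heart, in each of the 5 WT and 5 Taz-KD libraries of heart (left) and skeletal muscle (right). Points are libraries and lines are group means. In heart the groups are separate for all 7 members, while in muscle they overlap for each.

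Slc3a2 (ENSMUSG00000010095, chromosome 19 from 8706882 to 8723369), the heavy chain shared by these light chains, rose with Slc7a5 and Slc7a11 but by less. WT hearts measured 32.6, 22.5, 28.8, 26.8 and 28.7 CPM and Taz-KD hearts 78.9, 75.7, 79.3, 69.4 and 64.0 CPM. Every Taz-KD heart was well above every WT heart, and the log2 fold change was 1.40 ± 0.10 (adjusted p = 7.65e-07, edgeR), or 2.63-fold. Slc3a1, the heavy chain of the renal cystine system, did not pass (-0.19 ± 0.15, adjusted p = 0.412).

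Levels of different genes were compared per length, as CPM divided by the kilobases of merged exons. Merged exons join those of all annotated transcripts, with 13922 bases for Slc7a11 and 3708 for Slc7a5, and may be longer than the transcript present. Shares and ranks between genes therefore depend on the annotation. On this scale Slc3a2 measured 7.90 ± 1.05 in WT and 20.8 ± 1.87 CPM per kb in Taz-KD hearts (SD, n = 5). The 6 light chains together measured 6.98 ± 0.834 and 39.6 ± 6.05 CPM per kb. The summed light chains were therefore 0.835 to 0.953 of Slc3a2 in WT hearts and 1.64 to 2.13 of it in Taz-KD hearts, with no overlap. Slc7a5 made up 16.0 to 30.5% of the light chain sum in WT and 77.4 to 84.9% in Taz-KD hearts. Slc7a11, despite the larger fold change, made up only 2.37 to 3.86% of the sum in Taz-KD hearts. In muscle the Slc7a5 share was 5.01 to 11.6% in WT and 12.7 to 32.0% in Taz-KD libraries, also with no overlap. The summed light chains there were 1.24 to 2.20 of Slc3a2 in WT and 1.24 to 1.54 of it in Taz-KD muscles, with overlap. These shares follow from the values of the single genes and were not tested again.

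**Figure D3:**
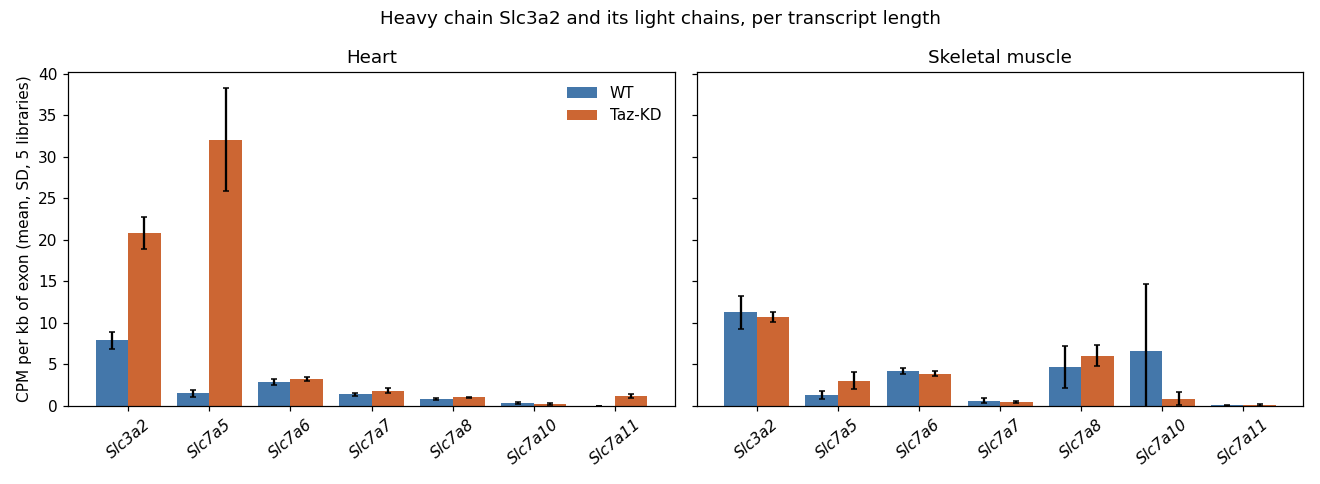
Mean CPM per kb of exon with SD (bars from 0, 5 libraries each) of the heavy chain Slc3a2 and the 6 light chains in WT and Taz-KD heart (left) and skeletal muscle (right). In heart Slc7a5 passes from below Slc3a2 to above it, whereas in muscle Slc3a2 stays the highest of the 7 in both genotypes.

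Of the 5 cationic amino acid carriers, 1 rose in heart. Slc7a3 (ENSMUSG00000031297, chromosome X from 101079210 to 101086020) encodes CAT3, a carrier of arginine and lysine. WT hearts measured 0.225, 0.150, 0.241, 0.245 and 0.104 CPM and Taz-KD hearts 11.9, 20.4, 15.1, 11.8 and 14.2 CPM. As with Slc7a11, the WT hearts were near the floor with 3 to 7 counts each and 28 in all, and no library of one genotype came near the other. The log2 fold change was 6.21 ± 0.23 (adjusted p = 4.69e-09, edgeR), or 74.2-fold. Slc7a1, the more widely expressed carrier CAT1, stood at 61.1 ± 15.8 CPM in WT hearts and 90.7 ± 17.7 CPM after knockdown and did not pass by edgeR (0.57 ± 0.20, adjusted p = 0.0590). It passed by DESeq2 (adjusted p = 0.0154), without robust dispersion (adjusted p = 0.0420) and when heart R1800 or R1797 was left out (adjusted p = 0.0334 and 0.0395). Slc7a4 likewise did not pass by edgeR (0.54 ± 0.19, adjusted p = 0.0588) and passed by DESeq2 (adjusted p = 0.0398). Slc7a2 did not pass (-0.22 ± 0.46, adjusted p = 0.777). Slc7a14, a lysosomal relative, had 0 to 16 counts per heart and was not tested.

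Among the SLC6 members, the glycine carrier Slc6a9 (GlyT1, ENSMUSG00000028542, chromosome 4 from 117834506 to 117875198) rose. Its WT hearts measured 6.05, 4.36, 4.62, 3.64 and 3.61 CPM and its Taz-KD hearts 28.7, 27.3, 35.7, 26.3 and 21.9 CPM. The lowest Taz-KD heart was above the highest WT heart by more than 3-fold, and the log2 fold change was 2.65 ± 0.16 (adjusted p = 4.4e-07, edgeR), or 6.27-fold. Exons of Slc6a9 share 1429 bases with Ccdc24 on the other strand, and Ccdc24 rose as well, from 1.18 ± 0.264 to 7.94 ± 1.51 CPM (log2 fold change 2.75 ± 0.19, adjusted p = 7.3e-07). The strand setting of the counting is not given in the sources used here, so how reads were divided between these genes was not tested. The same limit holds for others with exon bases shared on the other strand, among them Slc1a1 (2631 bases), Slc38a10 (367) and Slc7a7 (232). The taurine carrier Slc6a6, which measured 186 ± 21.4 CPM in WT hearts, did not pass (-0.06 ± 0.11, adjusted p = 0.740), nor did the vesicular carrier Slc6a17 (-0.15 ± 0.24, adjusted p = 0.693).

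The small neutral exchangers of the SLC1 family parted ways. Slc1a4 (ASCT1, ENSMUSG00000020142, chromosome 11 from 20302180 to 20332713), which exchanges alanine, serine, cysteine and threonine, measured 6.21, 1.50, 3.14, 1.89 and 3.30 CPM in WT hearts and 15.5, 19.9, 16.4, 13.0 and 14.0 CPM in Taz-KD hearts. The WT hearts varied more than 4-fold among themselves, yet all stayed below the Taz-KD hearts. The log2 fold change was 2.29 ± 0.32 (adjusted p = 0.000633, edgeR), or 4.88-fold. Slc1a5 (ASCT2), an exchanger of glutamine, did not pass (-0.29 ± 0.26, adjusted p = 0.465). The 3 glutamate carriers Slc1a1, Slc1a2 and Slc1a3 did not pass either, with log2 fold changes of -0.38 ± 0.21, 0.54 ± 0.35 and 0.50 ± 0.35 (adjusted p = 0.228, 0.289 and 0.340, edgeR).

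In the SLC38 family 4 members rose in heart and 1 fell. Slc38a1 (SNAT1, ENSMUSG00000023169, chromosome 15 from 96571418 to 96642913), a sodium-coupled carrier of glutamine and alanine, measured 36.6, 33.4, 42.2, 27.8 and 38.9 CPM in WT hearts and 82.7, 124, 123, 93.9 and 79.5 CPM in Taz-KD hearts. The genotypes did not overlap, and the log2 fold change was 1.49 ± 0.15 (adjusted p = 4.51e-05, edgeR), or 2.81-fold. In a fit of all 20 libraries, which shares 1 estimate of the spread between heart and muscle, this call was lost (adjusted p = 0.131). Slc38a2, the system A carrier SNAT2, rose from 217 ± 17.9 to 321 ± 29.5 CPM (0.57 ± 0.08, adjusted p = 0.000262), and Slc38a7, which exports glutamine from lysosomes, rose from 19.7 ± 1.21 to 30.4 ± 2.07 CPM (0.63 ± 0.07, adjusted p = 3.23e-05). Both had every Taz-KD heart above every WT heart. So had Slc38a10, a member of intracellular membranes, at a small log2 fold change of 0.20 ± 0.05 (adjusted p = 0.0124), a call lost in the joint fit of all 20 libraries (adjusted p = 0.294).

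Slc38a3 (SNAT3), which carries glutamine, histidine and asparagine, fell from 83.0 ± 13.3 to 60.2 ± 7.03 CPM (-0.46 ± 0.11, adjusted p = 0.0101, edgeR), with overlap between 64.8 CPM in the lowest WT heart and 71.4 CPM in the highest Taz-KD heart. Slc38a4 did not pass (0.37 ± 0.16, adjusted p = 0.104). The same held for Slc38a6 (0.02 ± 0.10, adjusted p = 0.908) and for Slc38a9, the lysosomal arginine sensor upstream of mTORC1 (0.04 ± 0.09, adjusted p = 0.775). Slc38a5 had 0 to 12 counts per heart and was not tested.

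All 3 members of the proton-coupled SLC36 family passed in heart, 2 upward and 1 downward. Slc36a4 rose from 17.3 ± 2.22 to 23.0 ± 1.22 CPM (0.41 ± 0.09, adjusted p = 0.00417, edgeR), with every Taz-KD heart above every WT heart. Slc36a1, the lysosomal exporter PAT1, rose by a log2 fold change of 0.29 ± 0.08 (adjusted p = 0.0180), and its groups overlapped. Its call was lost in the joint fit of all 20 libraries (adjusted p = 0.422) and without hearts R2 and R3 (adjusted p = 0.0566). Slc36a2 (PAT2, ENSMUSG00000020264, chromosome 11 from 55158470 to 55185077), a carrier of glycine, alanine and proline, measured 17.9, 23.2, 15.4, 18.7 and 20.4 CPM in WT hearts and 8.99, 15.1, 6.76, 9.26 and 11.2 CPM in Taz-KD hearts. It was the 1 member with all Taz-KD hearts below all WT hearts, although the highest Taz-KD heart nearly reached the lowest WT heart. The log2 fold change was -0.90 ± 0.19 (adjusted p = 0.00527).

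The facilitated carriers had 1 fall and no rise. Slc16a10 (TAT1), a carrier of aromatic amino acids, fell from 31.2 ± 2.63 to 23.8 ± 2.86 CPM (-0.39 ± 0.09, adjusted p = 0.00688, edgeR), with overlap of 1 Taz-KD heart at 27.6 CPM and 1 WT heart at 27.2 CPM. Slc43a3, a family member that transports purine bases, stood at 104 ± 14.1 and 70.2 ± 21.1 CPM and did not pass by edgeR (-0.57 ± 0.19, adjusted p = 0.0549). It passed as lower in 6 of 18 alternatives, among them DESeq2 (adjusted p = 0.00915) and the joint fit of all 20 libraries (adjusted p = 0.0302). For the large neutral amino acid carriers Slc43a2 (-0.31 ± 0.12, adjusted p = 0.0909) and Slc43a1 (-0.44 ± 0.32, adjusted p = 0.346) the test was not passed either. Markers of endothelial cells moved with the members that fell: 4 of 6 were lower in Taz-KD hearts, and their summed level ran from 763 to 937 CPM in WT hearts and from 632 to 782 CPM after knockdown. Erythroid markers were lower in 3 of 5 genes, with sums of 421 to 741 and 289 to 457 CPM, and none of these 11 markers was at 0. Their part in the lower values was not tested. By edgeR, 0 cardiomyocyte, fibroblast or macrophage markers were called in heart. At an unadjusted p under 0.05, 1 cardiomyocyte and 2 macrophage markers were lower, and DESeq2 called 1 cardiomyocyte marker lower. Among all genes tested in heart, 10.3% were called lower by edgeR, and 36.5% had an unadjusted p under 0.05 in either direction. When all 20 libraries were fitted jointly, Slc36a2, Slc38a3 and Slc16a10 were not called (adjusted p = 0.381, 0.279 and 0.330).

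The order of levels within the heart differed between genotypes. Per length, the highest members in WT hearts were Slc38a2 (24.6 ± 2.03 CPM per kb), Slc43a3 (23.4 ± 3.17) and Slc6a6 (22.0 ± 2.53), which lie within their spread of each other. In Taz-KD hearts Slc38a2 (36.4 ± 3.34 CPM per kb) and Slc7a5 (32.1 ± 6.24) led, again within their spread, ahead of Slc6a6 (21.1 ± 3.24) and Slc3a2 (20.8 ± 1.87). Slc7a5 moved from rank 19 of 37 to rank 2, Slc7a3 from 35 to 16 and Slc7a11 from 37 to 26. These ranks rest on the same merged exon lengths.

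Other genes of amino acid supply and sensing were read as lists, which were also chosen with earlier results of these data known. In heart, 8 of 13 genes of the amino acid response (GCN2, ATF4 and early targets) were higher by edgeR and 0 were lower, with a median log2 fold change of 2.03. At an unadjusted p under 0.05, 9 were higher and 1 was lower, and DESeq2 called 8 higher and 1 lower. The 3 with the smallest adjusted p were Trib3, a pseudokinase induced by stress (4.86 ± 0.16, adjusted p = 3.66e-09, edgeR), Chac1, a glutathione-degrading enzyme (3.04 ± 0.12, adjusted p = 9.12e-09), and Asns, asparagine synthetase (6.48 ± 0.23, adjusted p = 1.68e-08). Of 26 tested genes of lysosomal amino acid sensing, 6 were higher and 0 lower by edgeR and by DESeq2, and 8 were higher and 0 lower at an unadjusted p under 0.05, with a median of 0.12. Those with the smallest adjusted p were Sesn2, a leucine sensor that the first list also holds (2.80 ± 0.17, adjusted p = 5.53e-07), and the Ragulator and Rag GTPase genes Lamtor5 (0.36 ± 0.07, adjusted p = 0.00283) and Rragc (0.35 ± 0.07, adjusted p = 0.00289). By edgeR, 0 of 11 tested genes among other amino acid transporters passed, with 1 higher and 2 lower at an unadjusted p under 0.05 and 2 lower by DESeq2. For regulators of transporter traffic, such as the kinase gene Sgk1, 0 of 10 passed by edgeR, at an unadjusted p under 0.05 or by DESeq2. The median over all genes tested was -0.02. Of all 19486 genes tested in heart, edgeR called 14.4% higher and 10.3% lower. In either direction, 36.5% had an unadjusted p under 0.05.

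In skeletal muscle the same comparison gave no call. Of the 33 members tested by edgeR, 0 were higher and 0 were lower, against 0.0124% and 0.00619% of the 16145 genes tested. At an unadjusted p under 0.05 there were 2 higher and 5 lower members, and 14.9% of all genes. DESeq2 called 1 member, Slc7a5, higher and none lower. Among the tested members, 0 had every Taz-KD muscle above every WT muscle (1.06% of all genes), and 1, Slc36a4, had every Taz-KD muscle below (1.08%). Slc3a1, which had too few counts to be tested, also had every Taz-KD muscle below, at 0.0160 to 0.0589 CPM against 0.0631 to 0.327 CPM. The median log2 fold change was -0.14 over the members and -0.02 over all genes. Of the amino acid response genes, 0 of 13 passed by edgeR in muscle, 4 were higher at an unadjusted p under 0.05 and 1 was higher by DESeq2. The other transporters also gave 0 calls by edgeR or DESeq2, with 3 of 12 lower at an unadjusted p under 0.05, and the sensing and traffic lists gave 0 by each of these counts.

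Slc7a5 had the smallest unadjusted p among the members in muscle. WT muscles measured 5.50, 4.54, 3.73, 7.25 and 3.20 CPM and Taz-KD muscles 16.1, 9.72, 6.69, 9.75 and 14.1 CPM. A single pair overlapped, the lowest Taz-KD and the highest WT muscle, and the log2 fold change of 1.22 ± 0.28 did not pass (adjusted p = 0.311, edgeR). It passed in DESeq2 (adjusted p = 0.00445) and when hearts and muscles were fitted jointly (adjusted p = 0.0316). The glycine carrier Slc6a9 measured 3.81, 4.28, 4.35, 3.77 and 5.07 CPM in WT muscles and 7.37, 4.96, 4.68, 5.35 and 6.62 CPM in the Taz-KD muscles, which overlapped (0.45 ± 0.16, adjusted p = 0.311). Slc36a4 measured 4.23 to 5.89 CPM in WT muscle and 3.22 to 4.20 CPM after knockdown (-0.41 ± 0.14, adjusted p = 0.311), so among the tested members it alone had separate groups in muscle, on the side opposite to heart.

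The other members that rose strongly in heart overlapped between genotypes in muscle. Slc7a11 measured 2.35, 0.0663, 0.174, 0.398 and 0.0841 CPM in WT muscles and 2.69, 2.57, 0.287, 0.462 and 0.962 CPM in the Taz-KD muscles (1.18 ± 0.97, adjusted p = 0.534, edgeR). Its value was high in 1 WT and 2 Taz-KD muscles and low in the rest. Slc7a3 stayed low throughout, at 0.185, 0.0829, 0.199, 0.421 and 0.147 CPM in WT muscles and 0.413, 0.128, 0.287, 0.343 and 0.491 CPM in the Taz-KD muscles (0.69 ± 0.46, adjusted p = 0.459). Slc1a4 measured 1.24, 1.06, 1.09, 2.15 and 0.694 CPM in WT muscles and 1.06, 0.722, 0.682, 0.686 and 1.18 CPM in the Taz-KD muscles (-0.53 ± 0.31, adjusted p = 0.422). Its highest value was in the WT muscle A55. For Slc38a1 the values were 14.8, 4.44, 1.32, 2.57 and 0.715 CPM in WT muscles and 5.78, 0.626, 0.736, 2.34 and 4.93 CPM in the Taz-KD muscles (-0.73 ± 0.85, adjusted p = 0.653). The heavy chain Slc3a2 ran from 29.4 to 47.4 CPM over the WT muscles and measured 37.2, 37.1, 40.6, 34.9 and 39.4 CPM in the Taz-KD muscles (-0.07 ± 0.12, adjusted p = 0.772). All Taz-KD values of Slc3a2 lay inside the WT range. Of the light chains not yet given, Slc7a6 measured 17.5, 19.1, 18.1, 21.6 and 20.0 CPM in WT muscles and 16.1, 18.0, 16.4, 17.7 and 19.5 CPM in the Taz-KD muscles (-0.14 ± 0.09, adjusted p = 0.455). Slc7a7 measured 3.71, 1.53, 1.47, 1.71 and 1.70 CPM in WT muscles and 1.39, 1.17, 1.65, 2.04 and 1.75 CPM in the Taz-KD muscles (-0.34 ± 0.29, adjusted p = 0.548). Slc7a8 measured 14.7, 29.3, 21.2, 9.85 and 41.6 CPM in WT muscles and 25.3, 27.3, 36.1, 38.4 and 24.4 CPM in the Taz-KD muscles (0.38 ± 0.33, adjusted p = 0.559). Their groups overlapped, and A33 was high for Slc7a7.

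Slc7a10 and 3 members named after their values were seen, Slc1a5, Slc1a3 and Slc36a2, had large but uncalled differences in muscle that followed single WT muscles. Slc7a10 measured 42.3, 1.62, 8.58, 16.0 and 0.778 CPM in WT muscles and 0.138, 4.36, 2.39, 0.730 and 1.18 CPM in Taz-KD muscles (-2.97 ± 1.07, adjusted p = 0.311, edgeR). Slc1a5 measured 370, 36.1, 92.3, 170 and 28.8 CPM in WT muscles and between 17.9 and 54.1 CPM in the Taz-KD muscles (-1.91 ± 0.65, adjusted p = 0.311). Slc1a3 (-2.10 ± 0.79, adjusted p = 0.311) and Slc36a2 (-1.92 ± 0.79, adjusted p = 0.320) had the same WT muscles on top. The muscles A33, A55 and A51, in this order, were the highest for all 4 members, and the other WT muscles lay among the Taz-KD muscles. In the same 3 muscles the summed level of the 5 adipocyte markers was 1171, 342 and 216 CPM, against 24.0 and 24.3 CPM in the other WT muscles and 2.89 to 79.8 CPM in the Taz-KD muscles. The marker Ucp1 was at or near 0 in all muscles, whereas Adipoq, the gene of adiponectin, was above 0 in each. Without these 3 WT muscles, an alternative chosen after seeing the data, the log2 fold changes of the 4 members were 0.55, 0.19, 0.44 and 0.88, each with an adjusted p of 0.998. The muscles left out were the highest for these members, and only A40 and A57 remained as WT. The loss of the lower values therefore followed from the choice and is not a test. Other marker lists varied too. Macrophage markers summed to 42.1 to 94.4 CPM in WT and 27.1 to 49.1 CPM in Taz-KD muscles. At an unadjusted p under 0.05 (edgeR), 4 of 4 tested adipocyte, 3 of 6 macrophage and 2 of 5 fibroblast markers were lower. So were 1 cardiomyocyte, 1 endothelial and 1 smooth muscle marker, against 14.9% of all genes in either direction. By adjusted p, edgeR called 0 and DESeq2 1, an adipocyte marker. Their part in the muscle values was not tested.

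**Figure D4:**
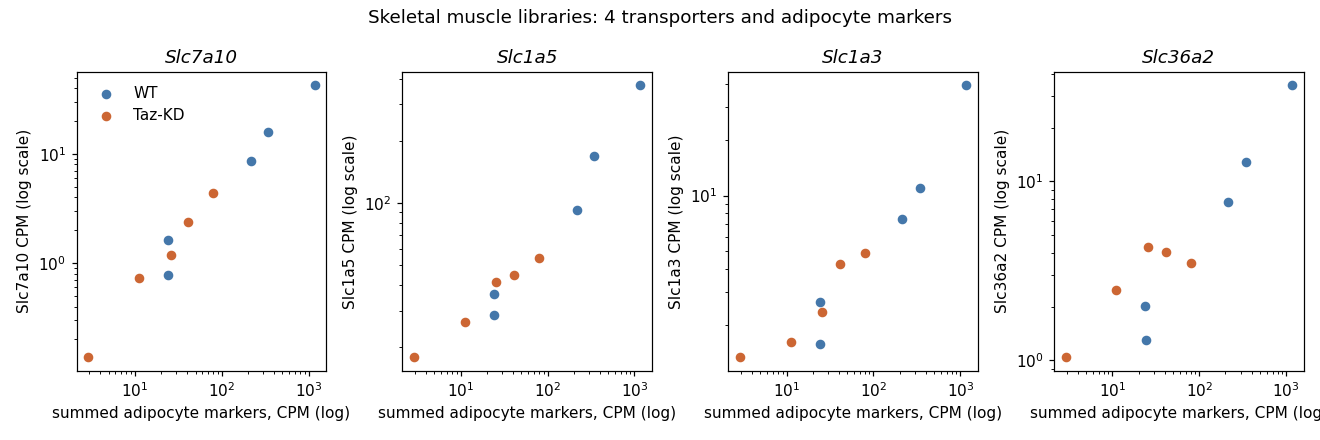
CPM of Slc7a10, Slc1a5, Slc1a3 and Slc36a2 (y axes, log) against the summed CPM of 5 adipocyte markers (x axes, log) in the 10 skeletal muscle libraries. Each point is a library, and 3 WT muscles with sums of 216 to 1171 CPM hold the highest value in every panel.

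Some levels set muscle apart as a tissue, although the tables were counted separately and levels were not tested between them. In WT muscle Slc38a3 (23.9 ± 11.7 CPM per kb), Slc38a2 (19.5 ± 2.95), Slc6a6 (14.5 ± 1.96) and Slc38a4 (13.6 ± 8.47) were among the highest, and Slc1a5 (33.4 ± 33.7) had an SD as large as its mean. In Taz-KD muscle Slc38a4 (18.4 ± 4.94 CPM per kb), Slc38a2 (17.6 ± 2.71) and Slc38a3 (17.5 ± 5.02) led and did not differ beyond their spread. The members not tested in muscle were Slc1a2, with 1 to 28 counts per library, Slc3a1, with 1 to 14, and Slc7a14 and Slc38a5, with 0 or 1.

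Whether the genotype effect differed between the tissues was tested as an interaction in 1 edgeR fit of all 20 libraries over the genes in both tables. Of the 35 members tested, 10 had a heart effect above the muscle effect and 0 had one below, against 3.07% and 1.55% of the 20612 genes tested. The difference, as the log2 fold change in heart minus that in muscle, was 5.45 ± 0.52 for Slc7a3 (adjusted p = 6.06e-06), 3.12 ± 0.34 for Slc7a5 (adjusted p = 2.71e-05) and 2.75 ± 0.45 for Slc1a4 (adjusted p = 0.00114). For Slc6a9 it was 2.15 ± 0.23 and for Slc3a2 1.39 ± 0.15, each with an adjusted p of 2.22e-05. Smaller differences were called for Slc36a4 (0.75 ± 0.13, adjusted p = 0.00226), Slc38a2 (0.65 ± 0.18, adjusted p = 0.0424) and Slc38a7 (0.37 ± 0.11, adjusted p = 0.0483). The call of Slc38a2 was lost in 11 of 27 alternatives and that of Slc38a7 in 16 of 27. No member had a heart effect below the muscle effect at an unadjusted p under 0.05 or by DESeq2, and 15 members had one above at an unadjusted p under 0.05. The share of all genes at this unadjusted threshold was not counted, so these 15 have no background to be set against.

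Single muscles weighed on other differences. For Slc7a11 the difference was 5.39 ± 1.14 (adjusted p = 0.00984, edgeR). It was 3.67 without muscle A33 (adjusted p = 0.0429) and 2.46 without muscles A33, A51 and A55, where it did not pass (adjusted p = 0.557). Slc1a2, the astrocyte glutamate carrier, had a difference of 3.03 ± 0.80 (adjusted p = 0.0338) that rests on 65 counts in WT and 13 in Taz-KD muscle, while its heart effect alone was not called. Its counts were 68, 16, 39, 27 and 16 in WT hearts and 41, 60, 55, 74 and 40 in Taz-KD hearts, with wide overlap, and 28, 6, 5, 23 and 3 in WT muscles and 2, 1, 2, 7 and 1 in Taz-KD muscles, where the WT muscles A33 and A55 were high. The call was lost in 13 of 26 alternatives. Without muscle A33 the difference no longer passed (2.61, adjusted p = 0.0711), and without the 3 muscles it was 1.33 (adjusted p = 0.561). Slc38a1, called in heart, had a difference of 2.11 ± 0.84 that did not pass (adjusted p = 0.165).

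**Figure D5:**
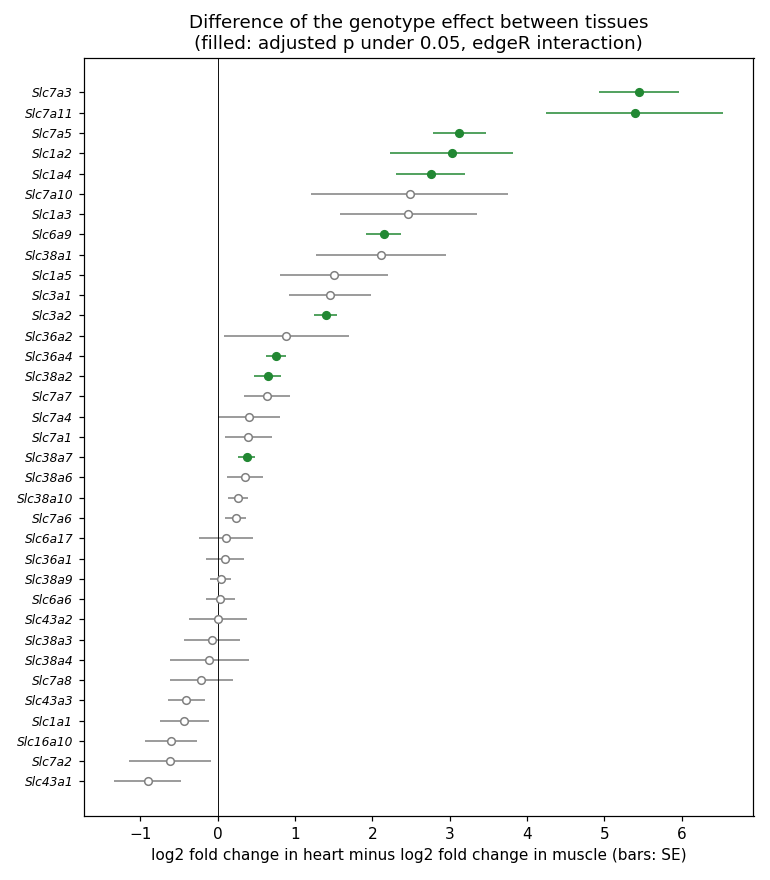
Log2 fold change in heart minus log2 fold change in skeletal muscle (x axis, bars are SE) for the 35 members tested (y axis, sorted). Filled points have an adjusted p under 0.05, and all 10 of them lie to the right of 0, from 0.37 for Slc38a7 to 5.45 for Slc7a3.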

How the data were processed

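Total RNA from 20 frozen hearts and femur muscles was depleted of ribosomal RNA and made into strand-specific paired-end libraries. Per the labels, the authors aligned reads to GRCm38 with STAR and counted them per gene with featureCounts 1.6.4. The deposited values are these raw counts, 1 table per tissue, and neither the STAR version nor the strand setting of the counting is stated in the sources consulted. From these counts, each tissue was tested with edgeR 4.0.16 in R 4.3.3 (TMM factors, filterByExpr, robust quasi-likelihood test, Benjamini-Hochberg adjusted p under 0.05), with alternatives including DESeq2 1.42.0. CPM used TMM library sizes. The statistics were tested on simulated counts drawn gene by gene, which hold no library like A33 that is high for several genes at once. How the tests fare with such a library was not tested. Symbols, positions and exon lengths came from GENCODE M21 and promoters from RefSeq. The members and lists were chosen with earlier results of these data known. Values in every library were given for members called with an absolute log2 fold change or difference of at least 1. They were also given for members the study names and for Slc3a2 and its light chains. Outside this rule, they were given for Slc36a2 in heart and Slc1a5 in WT muscle. Members below the filter were described by their counts.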

Additional observations from a re-analysis of the deposited data

Results flagged for a closer look

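Among 18 members and 72 groups of 5 libraries checked, 5 groups held a library far from the other 4, where chance gives about 1 group in 20. In WT muscle the library A33 stood above the rest for Slc7a7 (3.71 CPM, others 1.47 to 1.71), Slc7a11 (2.35 CPM, others 0.0663 to 0.398), Slc38a1 (14.8 CPM, others 0.715 to 4.44) and Slc1a3 (39.4 CPM, others 1.58 to 11.0), and this library also had the highest adipocyte marker sum of all muscles, 1171 CPM. Its part in these values was not tested. In Taz-KD muscle Slc1a2 was highest in A56 (0.104 CPM, others 0.0160 to 0.0393), at 7 counts.

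The genotype effect differed between heart and muscle for 10 members (edgeR interaction). The log2 difference of heart minus muscle was 5.45 for Slc7a3, 5.39 for Slc7a11, 3.12 for Slc7a5, 3.03 for Slc1a2, 2.75 for Slc1a4, 2.15 for Slc6a9, 1.39 for Slc3a2, 0.75 for Slc36a4, 0.65 for Slc38a2 and 0.37 for Slc38a7.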

How the results depend on the processing

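The count of 12 higher members in heart ran from 9 to 15 over the alternatives, and that of 3 lower members was 5 with upper-quartile factors and 1 in one fit of all 20 libraries. Leaving out 1 heart gave 12 to 13 higher and 3 to 4 lower members, and leaving out 1 muscle gave 0 in either direction. DESeq2 and the one fit each gave 1 higher member in muscle, Slc7a5. Without 1 heart, members that had missed the threshold passed: Slc1a2 without R3 (0.93), Slc7a4 without R1791 (0.65), Slc7a7 without R2 or R1793 (0.45 and 0.46) and Slc43a3 without R1797 (-0.73). The 10 differences between tissues became 7 to 11 when 1 library was left out, and 7 without muscles A33, A51 and A55, an alternative added after the data were seen. Signs changed only in calls that had not passed: Slc7a10 in heart was 0.067 without hearts R2 and R3. In muscle, leaving out 1 library gave Slc3a2 from -0.15 to 0.0038 and Slc38a1 from -1.15 to 0.33, with the highest values without A33. Without A33, A51 and A55, Slc3a2 was 0.17 and Slc38a1 0.14. Slc1a3 was then 0.44, Slc1a5 0.19, Slc7a10 0.55 and Slc36a2 0.88, changes that followed from leaving out the highest muscles for these genes. With at least 10 counts in every library, Slc7a3 and Slc7a11 could not be tested. The causes of these changes were not tested. No paired analysis was possible because the groups share no replicate numbers. Few WT counts limit the precision of the heart fold changes of Slc7a3 and Slc7a11.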
